A study of Mus musculus with 4 samples.

Results

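Nkg7, Gzma, Gzmb, Ctsw, Klrd1 and Prf1 are 6 of the 32285 genes counted in single-cell libraries of mouse bone marrow. They were listed by name as genes of the cytotoxic granule or of the cells that carry it. Nkg7 was put on the list because it was among the lowest genes of the library with both methyltransferase genes deleted, so its level there is a description and supports nothing. The other questions were which stem and progenitor cells carry these genes in the control, and how the genes differ from each other.

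The cells were Lin-Sca1+Kit+ (LSK) marrow cells, the fraction that holds haematopoietic stem cells and multipotent progenitors, sorted as CD45.2+ 10 weeks after transplantation. There were 4 libraries with 1 library per genotype: control (library name WT), Mll3 deleted, Mll4 deleted, and Mll3/4 deleted. Mll3 (Kmt2c) and Mll4 (Kmt2d) are histone H3 lysine methyltransferases that act at enhancers. The alleles, the Cre driver, the number of mice behind a library and the host cells are not given in the sources used here. Each library also carried counts of 6 barcoded antibodies, to CD150, CD48, CD201, CD135, CD117 and CD34.

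After the same filter on every barcode (at least 1000 genes detected and at most 10% mitochondrial UMIs), 7274, 6101, 4793 and 4748 cells remained in the control, Mll3, Mll4 and Mll3/4 libraries. A UMI is a molecular tag that counts 1 captured transcript once. The libraries held 119328763, 105907176, 120700343 and 50792614 gene UMIs, with medians of 14454, 15381, 21400 and 8920 per cell. Among the 22916 cells, 61 barcodes occurred in 2 or more libraries, 7 to 14 for each pair. Every group is a single library, so differences between groups could not be tested against replicates, and the 95% intervals given throughout cover counting error only. The labels were checked on the targeted genes. Kmt2c was at 68.9 CPM (UMIs per 1000000 gene UMIs of the library) in the control library and at 35.3, 61.3 and 42.3 in those labelled Mll3, Mll4 and Mll3/4 deleted. Kmt2d was at 24.6 in the control and at 21.6, 22.6 and 25.4 in the others, so its 3' counts did not separate the libraries labelled as deleted for it. Such counts need not lie in the deleted part and may check nothing. All directions below are therefore between libraries as labelled. Each library also differed in its cells: the library labelled Mll4 deleted held 605 mast- or basophil-like and 921 monocyte- or macrophage-like cells, and 4720 of the 4748 cells of the library labelled Mll3/4 deleted were B-lineage-like.

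Killer lymphocytes store a pore-forming protein and a set of serine proteases in secretory lysosomes. On contact with a target cell the granule moves to the synapse and fuses with the membrane, perforin opens the target membrane, and granzymes enter and cleave substrates that lead to death. The granule's content and its release both depend on general lysosome and exocytosis proteins that myeloid cells share. Prf1 encodes perforin, Gzma and Gzmb encode granzymes A and B, and Ctsw encodes cathepsin W, a papain-like protease of T and NK cells. Nkg7 encodes a membrane protein of the granule with a role in its release. Klrd1 encodes CD94, the receptor chain that pairs with NKG2 chains on NK cells.

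The 6 genes lie on 6 chromosomes of GRCm38, by the GENCODE vM21 annotation. Nkg7 (ENSMUSG00000004612) spans chr7:43437073-43438249 on the plus strand in 4 exons. Gzma (ENSMUSG00000023132) spans chr13:113093825-113100981 and Gzmb (ENSMUSG00000015437) spans chr14:56258838-56262260, both on the minus strand in 5 exons. Klrd1 (ENSMUSG00000030165) spans chr6:129591782-129598775 on the plus strand in 6 exons and has Klre1 as its nearest coding neighbour at 5955 bp. Prf1 (ENSMUSG00000037202) spans chr10:61297833-61304680 on the plus strand in 3 exons. Ctsw (ENSMUSG00000024910) spans chr19:5465043-5468507 on the minus strand in 10 exons and overlaps Fibp on the plus strand. Whether the deposited counts used the strand is not given in the sources used here. Fibp was at 49.0, 62.0, 38.9 and 55.6 CPM in the control, Mll3, Mll4 and Mll3/4 libraries. Its log2 ratios to the control were 0.34, -0.33 and 0.18, where those of Ctsw were 0.59, -2.12 and -4.77. Fibp and Ctsw thus went opposite ways only in the Mll3/4 library, and in the Mll4 library Fibp moved less. The other 5 genes overlap no annotated gene.

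RefSeq promoter sequences (GRCm38.p6) were matched for 4 of the 6 genes, with no match for Ctsw and Klrd1. They are shown because these 4 genes went different ways between the libraries while their promoters share a motif. Each stretch reads 5′ to 3′ on the gene's own strand. It ends just before the RefSeq start for Gzma and Gzmb, which for Gzmb lies upstream of the GENCODE start, and just before the GENCODE start for Nkg7 and Prf1. The 65 bases of the Nkg7 window and the 3 bases of the Prf1 window that GENCODE places inside the gene are left out. Capitals mark the RUNX motif TGTGGT or its reverse complement ACCACA and the ETS motif AGGAAGT or its reverse complement ACTTCCT.

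Nkg7, chr7:43436888-43437072, strand plus: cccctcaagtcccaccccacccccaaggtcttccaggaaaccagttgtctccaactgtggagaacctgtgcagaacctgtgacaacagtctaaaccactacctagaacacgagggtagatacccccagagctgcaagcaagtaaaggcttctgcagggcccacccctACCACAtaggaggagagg
Gzma, chr13:113100982-113101231, strand minus: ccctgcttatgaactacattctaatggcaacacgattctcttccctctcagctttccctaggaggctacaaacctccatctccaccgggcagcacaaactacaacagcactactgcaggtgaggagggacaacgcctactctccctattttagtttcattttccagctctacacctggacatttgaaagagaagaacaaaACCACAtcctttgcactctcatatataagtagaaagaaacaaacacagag
Gzmb, chr14:56262335-56262584, strand minus: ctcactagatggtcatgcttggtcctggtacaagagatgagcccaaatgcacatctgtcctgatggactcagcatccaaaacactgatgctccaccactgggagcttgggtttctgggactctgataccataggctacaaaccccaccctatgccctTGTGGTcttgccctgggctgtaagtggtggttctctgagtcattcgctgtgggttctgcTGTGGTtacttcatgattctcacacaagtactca
Prf1, chr10:61297586-61297832, strand plus: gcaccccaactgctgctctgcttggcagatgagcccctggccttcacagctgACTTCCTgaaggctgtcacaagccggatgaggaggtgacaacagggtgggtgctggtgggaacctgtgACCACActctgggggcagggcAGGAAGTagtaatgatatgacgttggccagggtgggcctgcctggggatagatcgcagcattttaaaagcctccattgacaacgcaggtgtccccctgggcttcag

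All 4 promoters held the RUNX letters within the 250 bases before the RefSeq start, Gzmb at 2 places (93 and 34 bases before it). Of 32851 RefSeq promoters of the same length, 14.0% held that motif on either strand. RUNX factors, with Runx3 prominent in killer cells, bind such letters, but a match is only a description of the sequence. In Prf1 the RUNX match began 130 bases before the start and stood beside an ETS match at 109 bases, with a second ETS match at 198 bases, where 7.69% of promoters held the ETS motif. The T-box motif GGTGTGA, present in 3.33% of promoters, occurred 13 bases before the RefSeq start of Nkg7, in the bases left out above, and in none of the other 3. The motifs TTGCNNAA (C/EBP, 9.56% of promoters) and AGATAA (for the GATA factors, 9.99%) were not found in these 4 windows.

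Nkg7 was detected across the control library and at trace level in the library labelled Mll3/4 deleted. Its level was 184 CPM (182 to 187) in control cells, 85.5 CPM (83.8 to 87.3) in the Mll3 library, 93.0 (91.3 to 94.7) in the Mll4 library and 0.847 (0.613 to 1.14) in the Mll3/4 library. The order was control, Mll4, Mll3 and Mll3/4, and no 2 of these intervals overlapped. In cells the counts were 5014 of 7274 control cells with a Nkg7 UMI (68.9%), 2867 of 6101 (47.0%), 1688 of 4793 (35.2%) and 12 of 4748 (0.253%). Libraries differ in depth, so each cell was also thinned to 3000 UMIs, which left out 14 to 134 cells per library. The expected shares were then 33.8% (32.7 to 34.9), 17.5%, 13.5% and 0.0848%, the same order as the unthinned shares but with the Mll3 library above the Mll4 library in both, opposite to their order by level. A Nkg7-positive cell carried 4.39 Nkg7 UMIs on average in the control, 3.16 in the Mll3 library and 6.65 in the Mll4 library.

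Against the control, the log2 ratio of Nkg7 was -1.11 (-1.14 to -1.07) in the Mll3 library, -0.99 (-1.02 to -0.95) in the Mll4 library and -7.75 (-8.23 to -7.34) in the Mll3/4 library, a 218-fold lower level (162 to 301). All 3 comparisons use that same control. Of the genes that reached 5 CPM in either library, Nkg7 ranked 82 from the lowest of 10120 in the Mll3 comparison, 547 of 10389 in the Mll4 comparison and 29 of 10504 in the Mll3/4 comparison. The value in the Mll3/4 library depended on how cells were weighted: it was -8.98 with every cell given equal weight and -5.64 with the antibody gates weighted to the control's shares. Against the single deletions rather than the control, the Mll3/4 library was 101-fold lower than the Mll3 library and 110-fold lower than the Mll4 library.

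The granzymes were carried by few cells, and their levels went apart. Gzma was at 1.27 CPM (1.07 to 1.48) in control cells, 1.83 CPM (1.58 to 2.11) in the Mll3 library and 0.0746 (0.0341 to 0.142) in the Mll4 library, from 151, 194 and 9 UMIs. No Gzma UMI was found in the Mll3/4 library, which allows up to 0.0632% of its cells to hold a UMI at this depth and does not limit the cells that express the gene. With a 0 set to 3 UMIs, about the one-sided 95% limit of a count of 0, the level was 21.4-fold lower than the control. By the two-sided 95% limit of the ratio it was at least 17.2-fold lower. The Gzma UMIs of the control came from 14 cells and those of the Mll3 library from 37, so each value rests on few cells.

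Gzmb was at 0.486 CPM (0.369 to 0.628) in control cells, 1.58 CPM (1.35 to 1.83) in the Mll3 library and 21.2 (20.4 to 22.1) in the Mll4 library. No Gzmb UMI was found in the Mll3/4 library, which with the 0 set to 3 UMIs is a level at least 8.23-fold lower than the control and at least 360-fold lower than the Mll4 library. The Mll4 library thus stood far above the others, 43.7-fold over the control (33.7 to 57.7), with 478 of 4793 cells positive (9.97%) against 17 in the control. That log2 ratio of 5.44 was 2.81 without the clusters of mast, macrophage, plasma, T, NK or innate lymphoid kind (2080 cells of the Mll4 library and 110 of the control), 4.66 with a stricter cell filter and 6.82 with equal weight per cell. In the Mll3 library 14 cells held all 167 Gzmb UMIs, and 1 of them held 55; its log2 ratio of 1.69 became 2.71 with the gates weighted to the control's shares.

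Perforin was the gene of the 6 that was highest in the Mll3/4 library. Prf1 was at 0.109 CPM (0.0580 to 0.186) in control cells, 0.161 CPM (0.0935 to 0.257) in the Mll3 library and 0.182 (0.114 to 0.276) in the Mll4 library, from 13, 17 and 22 UMIs whose intervals overlap. In the Mll3/4 library it was at 1.58 (1.25 to 1.96), from 80 UMIs in 72 cells, 14.5-fold over the control (7.99 to 28.3). Thinned to 3000 UMIs, the expected share of Prf1-positive cells was 0.551% there and 0.0413% to 0.107% in the other 3 libraries.

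Cathepsin W followed another pattern. Ctsw was at 11.5 CPM (10.9 to 12.2) in control cells, 17.4 CPM (16.6 to 18.2) in the Mll3 library, 2.65 (2.37 to 2.96) in the Mll4 library and 0.413 (0.256 to 0.632) in the Mll3/4 library. No 2 of these intervals overlapped, and unlike Nkg7 the Mll3 library was above the control. The share of positive cells was 15.8%, 23.3%, 5.38% and 0.400%, or 3.37%, 5.16%, 0.923% and 0.0848% after thinning. The log2 ratios to the control were 0.59 (0.49 to 0.70), -2.12 (-2.30 to -1.94) and -4.77 (-5.50 to -4.18); the last, a 27.9-fold lower level, became -3.19 with the gates weighted to the control's shares.

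Klrd1, the CD94 receptor chain, was at 1.27 CPM (1.08 to 1.49) in the control and 1.26 (1.05 to 1.49) in the Mll3 library, which did not differ beyond counting error (log2 ratio -0.02, interval -0.37 to 0.32). It was higher in the Mll4 library at 5.92 (5.49 to 6.37), with 155 positive cells against 49 in the control. The Mll3/4 library held 1 Klrd1 UMI, a ratio to the control of 0.0155 (0.000389 to 0.0874).

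**Figure D1:**
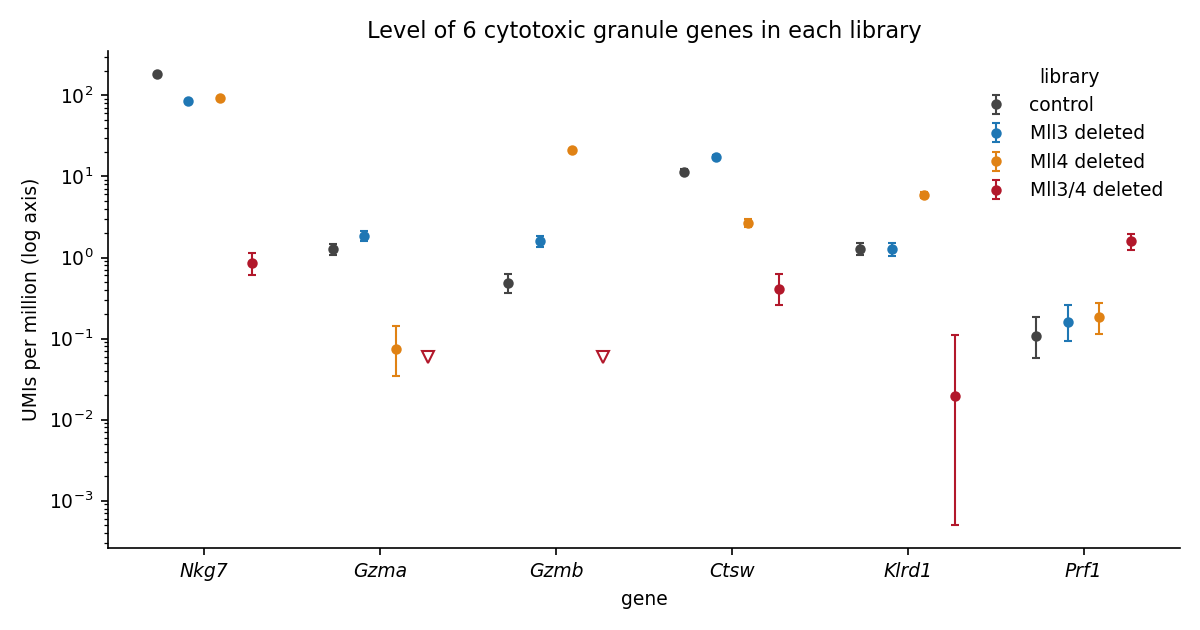
CPM of each gene (log axis) in the 4 libraries, as points with 95% Poisson intervals; open triangles mark a count of 0, drawn at 3 UMIs. The Mll3/4 deleted library is the lowest for Nkg7, Ctsw and Klrd1, holds no Gzma or Gzmb UMI, and is the highest for Prf1 at 1.58.

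The 6 genes did not share 1 direction in any of the 3 comparisons. In the Mll3 library 2 members reached 5 CPM in either library: Nkg7 was at least 2-fold lower, as were 0.949% of the 10120 genes compared, and none was 2-fold higher, as were 1.71%. Of the list, 4 members reached that level in the Mll4 comparison: Ctsw was at least 2-fold lower against 5.15% of 10389 genes, Gzmb and Klrd1 were at least 2-fold higher against 8.27%, and Nkg7, at a ratio of 0.504, was just short of the fold. In the Mll3/4 library both members that reached it, Nkg7 and Ctsw, were at least 2-fold lower against 13.7% of 10504 genes, and none was higher against 10.3%. Nothing is read from the Nkg7 count there, since the gene was chosen by it. The median log2 ratio of all genes compared was 0.10, -0.10 and -0.11 in the 3 comparisons.

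In the control, Nkg7 was higher in every multipotent progenitor gate than in the stem-cell gate. The antibody counts divide LSK cells without using mRNA. Among CD135- cells, the HSC gate is CD150+ and CD48-, MPP1 lacks both proteins, MPP2 has both, and MPP3 is CD48+ without CD150. The MPP4 gate is CD135+ and CD150-. CD135 calls depended on the scale: 28.6% of all cells were above the threshold with the centred counts used here, and 54.4% with uncentred log counts. Only the HSC and MPP3 gates were also checked on the other scale, so the MPP4 and CD150+CD135+ values hold for these thresholds. MPP2 and MPP3 are known as the megakaryocyte- and myeloid-leaning and MPP4 as the lymphoid-leaning multipotent progenitors. Control Nkg7 was at 54.5 CPM (51.5 to 57.6) in the HSC gate of 1702 cells and at 106 (101 to 112) in the MPP1 gate of 981 cells. It was at 229 (218 to 240) in the MPP2 gate of 336 cells, 253 (249 to 257) in the MPP3 gate of 3208 cells and 167 (161 to 174) in the MPP4 gate of 914 cells. The remaining 133 CD150+CD135+ cells were at 57.6 (47.0 to 69.8), whose interval overlaps that of the HSC gate; the other gates did not overlap each other.

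The MPP3 gate held 68.7% of the control's Nkg7 UMIs with 44.1% of its cells. After thinning to 3000 UMIs the expected share of Nkg7-positive cells was 11.6% in the HSC gate, 23.2% in MPP1, 45.2% in MPP2, 48.2% in MPP3 and 35.3% in MPP4, the order seen by level, with overlapping intervals for MPP2 (39.8 to 50.7) and MPP3 (46.4 to 49.9). Ctsw, by contrast, ranged only from 7.81 CPM (5.93 to 10.1) in the MPP2 gate to 14.0 (12.2 to 16.0) in the MPP4 gate of the control, with 9.07 (7.88 to 10.4) in the HSC gate. Klrd1 was at 5.08 (4.01 to 6.35) in the control's MPP4 gate and had no UMI in the HSC and MPP1 gates.

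Within gates, Nkg7 was lower in the Mll3 and Mll4 libraries than in the control in every gate compared. In the Mll3 library it was lower in 6 of 6 gates, with log2 ratios from -0.95 in MPP4 to -0.38 in MPP1 and every interval below 0. For the Mll4 library it was lower in 5 of 5 gates with at least 30 cells, from -2.38 in MPP4 (32.2 CPM) to -0.52 in MPP2 (159). The MPP3 gate, which held 69.0% of the Mll4 library's cells, was at 111 (109 to 113) and the HSC gate at 20.3 (17.6 to 23.4), so the gates of that library kept the HSC gate below MPP3. By the clusters described below, the HSC-like cluster 4 held 1612 control cells and 1 cell of the Mll4 library. The lymphoid-primed-like cluster held 2519 and 2, so the gates of these libraries hold different mixes of cells. In the Mll3/4 library Nkg7 was lower in 6 of 6 gates, from which nothing is read, since the gene was chosen by its low level there. B-lineage-like cells made up 99.4% of that library, so its gates do not hold cells like those of the control. Its HSC gate held 2 Nkg7 UMIs in 198 cells, and its MPP4 gate held 2 in 2153 cells, a ratio to the control of 0.000483 (0.0000585 to 0.00175). The MPP3 gate of the Mll3/4 library, with 30 UMIs in 445 cells (6.30 CPM), was 40.2-fold lower than in the control.

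Ctsw differed from Nkg7 in direction within the Mll3 library, gate by gate. It was higher than the control in 6 of 6 gates of the Mll3 library, with log2 ratios from 0.21 in MPP3 to 1.16 in the CD150+CD135+ cells, and its interval was above 0 in 5 of them. In the HSC gate Ctsw was at 19.7 CPM (18.5 to 21.1) in the Mll3 library against 9.07 in the control, where Nkg7 was at 36.3 (34.6 to 38.1) against 54.5. Ctsw was lower in 5 of 5 gates of the Mll4 library (-2.41 to -0.76). In the Mll3/4 library it was lower in 6 of 6, with 5 intervals below 0 and few UMIs: 5 in the HSC gate and 6 in the MPP4 gate.

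**Figure D2:**
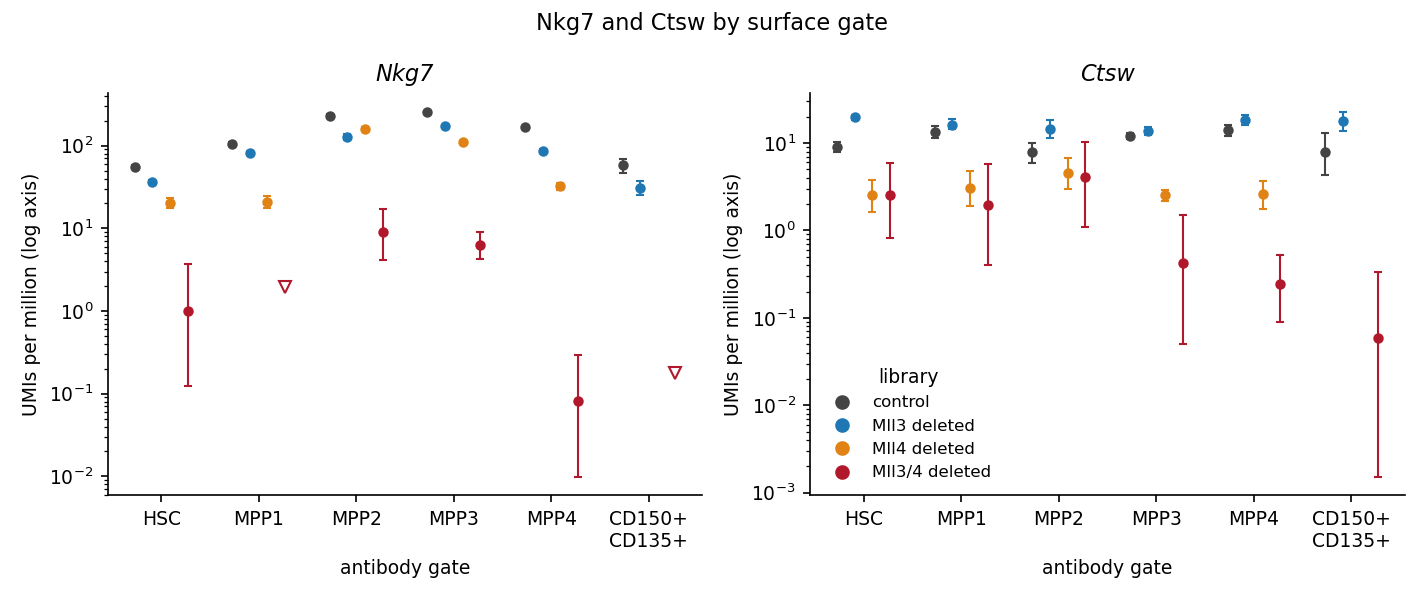
Nkg7 (left) and Ctsw (right) in CPM (log axis) by antibody gate and library, with 95% Poisson intervals; open triangles mark a count of 0, drawn at 3 UMIs, and the 27 CD150+CD135+ cells of the Mll4 library are not drawn. Control Nkg7 is lowest in the HSC gate (54.5) and highest in MPP3 (253), while the Mll3 library lies below the control for Nkg7 and above it for Ctsw in every gate.

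Clusters of cells, made without the 6 genes and named from fixed marker lists, gave the same picture by mRNA. Control Nkg7 was highest in the 114 granulocyte- or monocyte-like cells (Mpo, Elane, Ms4a3 and Ctsg among their leading genes) at 492 CPM (467 to 518), with 108 of them positive. Next stood the megakaryocyte-like cells at 223 (215 to 231), a cluster led by Pf4 and Gp9 together with replication genes such as Ung and E2f1, and the lymphoid-primed-like cells at 211 (207 to 216), led by Flt3 among others. Cluster 2, unnamed and led by histone genes such as Hist1h1a, was at 202 (198 to 207); its interval touches that of the lymphoid-primed-like cells, which in turn overlaps that of the megakaryocyte-like cells. The 20 neutrophil-like cells (179, 136 to 230), cluster 13 (166, 126 to 214) and cluster 8, led by mitosis genes such as Ccnb2 (160, 151 to 169), could not be ordered.

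The lowest control classes included the stem-like cells. The 1692 HSC-like cells, of which 1612 formed cluster 4 (Procr among its leading genes), were at 44.2 CPM (41.2 to 47.4), and at 18.8 when the control was clustered alone. Dendritic-like cells were at 23.2 (12.7 to 38.9), B-lineage-like cells at 20.8 (8.37 to 42.9) and plasma-like cells at 10.2 (4.42 to 20.2). As a reference for free RNA, the thinned share of positive cells was 0 of 33 in plasma-like cells (median 21244 UMIs per cell), 1 of 15 in B-lineage-like cells (21303) and 10.3% (8.88 to 11.8) in HSC-like cells (10442). The upper limits of the first 2 (10.6% and 31.9%) reach the HSC-like share, so a positive HSC-like cell is not separable from background at this depth by its share. The HSC-like level was above that of the plasma-like cells, but its interval overlapped that of the B-lineage-like cells. With the control clustered alone, the HSC-like level of 18.8 lay inside the intervals of both references. Most Nkg7 UMIs came from the large classes: cluster 2 held 34.7%, lymphoid-primed-like cells 33.0%, megakaryocyte-like cells 15.3% and granulocyte- or monocyte-like cells 6.73% with 1.57% of the cells.

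**Figure D3:**
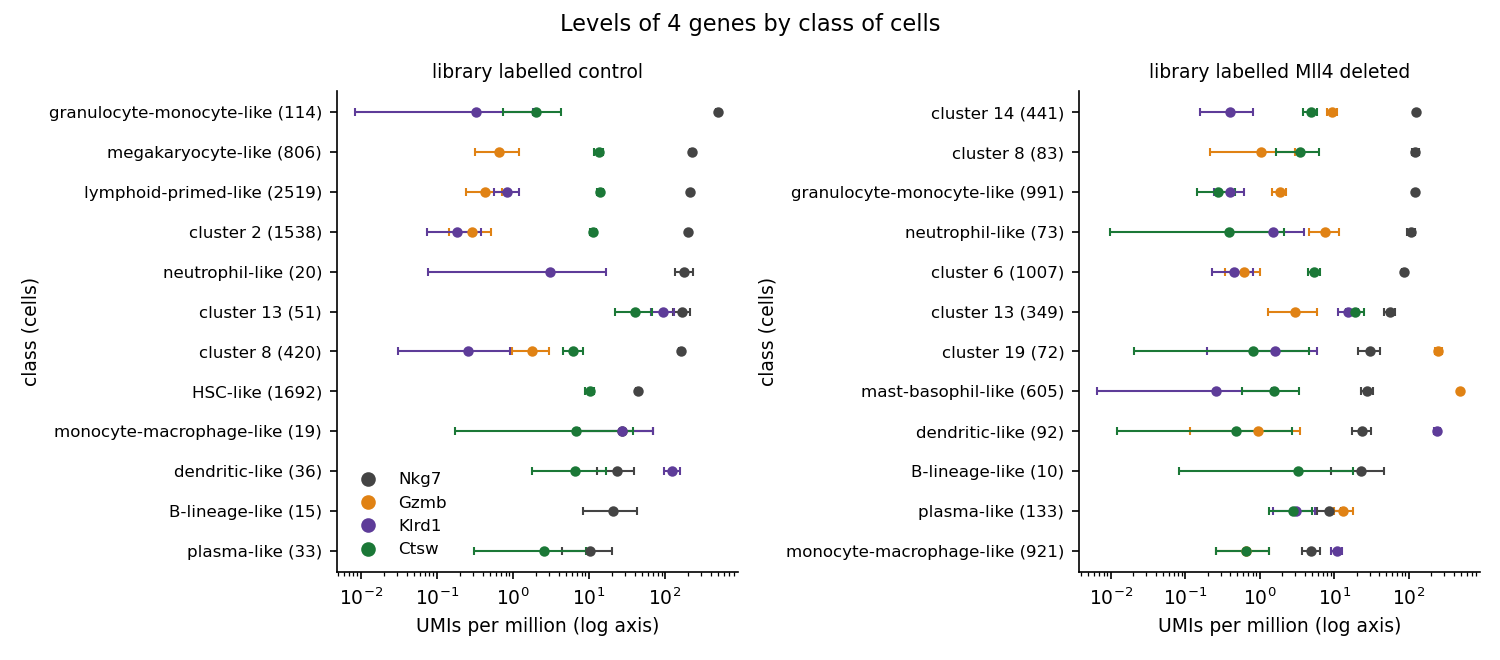
CPM (log axis) of Nkg7, Gzmb, Klrd1 and Ctsw in the classes of the control (left) and Mll4 deleted (right) libraries, with 95% Poisson intervals and the number of cells in brackets; a gene with no UMI in a class has no point. In the control Nkg7 runs from 10.2 in plasma-like cells to 492 in granulocyte- or monocyte-like cells; in the Mll4 library Gzmb reaches 490 in mast- or basophil-like and Klrd1 240 in dendritic-like cells.

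Of the classes with at least 30 cells in both libraries, the granulocyte- or monocyte-like cells had the lowest Nkg7 ratio of Mll4 to control. The interval of that log2 ratio (-2.02, -2.10 to -1.94) overlapped that of cluster 13 (-1.59, -2.03 to -1.12). The 991 such cells of the Mll4 library held 51.7% of its Nkg7 UMIs at 121 CPM (118 to 125), 4.05-fold lower than the control's 492. Clusters 10 and 12 formed this class, with 78 and 36 cells in the control but 497 and 494 in the Mll4 library. In the Mll3 library the 102 such cells were at 397 (375 to 421). The lymphoid-primed-like cells of the Mll3 library were at 134 (128 to 140), 1.58-fold lower than the control. Its HSC-like cells, 2155 of 2227 from cluster 3 rather than cluster 4, were at 28.4 (26.5 to 30.4), 1.56-fold lower. Ctsw in those 2 classes of the Mll3 library was higher than the control, at log2 ratios of 0.58 and 1.06.

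NK cells are the textbook source of Nkg7, and their markers were scarce. Of the 5014 Nkg7-positive control cells, 3 carried UMIs of 3 or more of 10 NK markers (0.0598%, against 0.110% of all control cells). For 3 or more of 10 T-cell markers 12 did (0.239% against 0.206%), and 1305 did for 3 or more of 8 granulocyte-monocyte markers. The last is 26.0% of the Nkg7-positive cells, against 19.5% of all control cells. Nkg7-positive cells were also deeper (median 17051 UMIs against 14454). For 3 or more of 10 HSC markers the share was 79.9% against 81.8% of all control cells, and for 8 dendritic markers 10.9% against 14.5%. The 10 NK markers summed to 5.84 CPM in the control, 4.85 in the Mll3 library, 28.6 in the Mll4 library and 2.54 in the Mll3/4 library, with 0, 1, 0 and 3 of them at 0. In the control the receptor gene Ncr1 had 16 UMIs, Klrb1c 58, and the factors Eomes and Tbx21 had 12 and 4. In the Mll4 library Klrk1 (9.20 CPM) and Ccl5 (12.9) made up most of the NK sum; their part in the Mll4 values was not tested.

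In single control cells Nkg7 went with the genes of primary myeloid granules and not with those of later neutrophil granules or of monocytes. With each cell thinned to 3000 UMIs and split by whether a Nkg7 UMI was drawn, the neutrophil elastase gene Elane was 8.30 times as high in cells with Nkg7 as in cells without (6.34 to 12.7 over 20 draws). The ratio was 4.50 for Ms4a3, 3.59 for the cathepsin G gene Ctsg (2.90 to 4.55), 3.13 for the myeloperoxidase gene Mpo (2.78 to 3.62) and 1.46 for Prtn3. The other genes of that list were at 1.98 (Cebpe), 1.31 (Fcnb, draws from 0.656 to 2.39) and 1.04 (Gfi1). Outside the granulocyte- or monocyte-like cells the ratio was 3.36 for Elane, 2.09 for Ctsg and 2.14 for Mpo, but 1.01 for Cebpe and 0.986 for Gfi1. All 7 neutrophil markers with enough UMIs had ratios below 1, from 0.391 for the lactoferrin gene Ltf (0.0812 to 0.701) to 0.670 for S100a9, with draws on both sides of 1 for Camp, S100a8 and S100a9. Monocyte markers were lower as well, among them Csf1r (0.304) and Ccr2 (0.294), with Ms4a6c at 0.954. The mast- and basophil-cell genes with enough UMIs were higher in cells with Nkg7: 2.79 for Mcpt8, 2.60 for Cpa3, 2.89 for Fcer1a and 6.09 for Ms4a2 (2.61 to 17.0). Outside the granulocyte- or monocyte-like cells these ratios were 1.93, 1.85, 1.84 and 3.82. Cma1 and Mcpt4, with 18 UMIs each, were at 0 in cells with Nkg7 and 0.633 CPM in cells without.

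Stem-cell genes went the other way. All 10 HSC markers were lower in cells with a Nkg7 UMI, from a ratio of 0.388 for Slamf1, which encodes CD150, to 0.820 for Meis1. Among lymphoid-primed genes the ratio was 1.22 for Flt3 and 0.514 for Il7r. The NK genes with enough UMIs were at 0.578 (Klrb1c), 0.250 (Klrk1) and 0.973 (Ccl5, draws from 0.451 to 2.21), so none had a ratio above 1. Among T-cell genes Lck was at 1.15 (1.01 to 1.36) and Cd4 at 0.235 (0.145 to 0.385). Cd3g was at 2.14, but its draws ran from 0.743 to 33.0. Cd3d, Trbc2 and Bcl11b also had draws on both sides of 1.

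**Figure D4:**
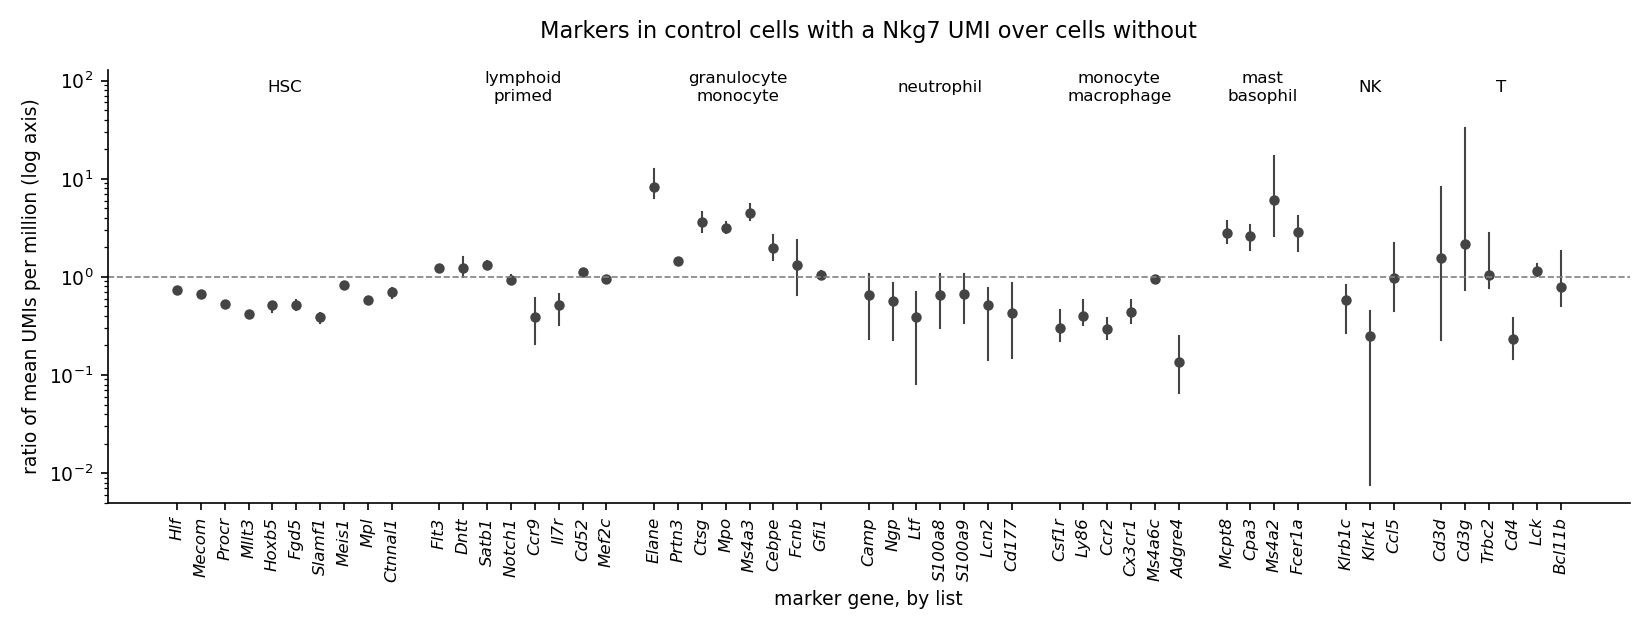
Ratio (log axis) of mean CPM in control cells with a Nkg7 UMI to cells without, after thinning to 3000 UMIs, for marker genes with at least 50 UMIs; bars span the lowest and highest of 20 draws, and the dashed line is a ratio of 1. All 10 HSC markers lie below the line and so do the neutrophil and monocyte-macrophage markers, while Elane (8.30), Ms4a3 (4.50) and Ctsg (3.59) lie well above it.

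Over the 7274 control cells the genes most like Nkg7 by Pearson correlation, among 10724 genes seen in at least 2% of cells, were Plac8 (r = 0.455), Cd48 (0.438), H2afy (0.422), Ptma (0.420), Cdk6 (0.406), Serpinb1a (0.378), Cd34 (0.366), Stmn1 (0.358), Tespa1 (0.347) and Dut (0.347). Cd48 is the marker that separates the MPP2 and MPP3 gates from the HSC gate. The most opposite were Txnip (-0.349), Hacd4 (-0.323), Mllt3 (-0.319), Socs2 (-0.311) and B2m (-0.282). These cells share 1 library and differ in depth: thinned to 3000 UMIs, the r of the first 10 lay between 0.104 and 0.217. Of the first 10 genes, Serpinb1a, an inhibitor of neutrophil proteases, had log2 ratios to the control of -1.19, 0.32 and -6.24 in the Mll3, Mll4 and Mll3/4 libraries, and Cd34 had -0.35, -0.74 and -6.00. These were the lowest of the 10 in the Mll3/4 library, where the others ran from -3.12 for Cd48 to -0.00 for Ptma. Ctsw itself had an r of only 0.066 with Nkg7. In thinned control cells, 38.1% of those with a Ctsw UMI also had Nkg7 against 33.8% of all cells, and in the Mll3 library 17.8% against 17.5%.

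In the library labelled Mll3/4 deleted, Nkg7 was found in no B-lineage-like cell. All 43 Nkg7 UMIs were in 12 of the 28 cells that were not B-lineage-like, at 57.3 CPM (41.5 to 77.2). The 4720 B-lineage-like cells held none, which allows up to 0.0636% of them to hold a UMI at their median of 8900 UMIs and, at 3 UMIs, a level of 0.0599 CPM. B-lineage-like cells of other libraries were not at 0: they had 7 Nkg7 UMIs in 15 control cells (20.8 CPM), 74 in 159 cells of the Mll3 library (18.1, 14.2 to 22.7) and 7 in 10 cells of the Mll4 library (22.6). The control's B-lineage-like cells were also a reference for free RNA above. Whole libraries held Nkg7 at 184 (control), 85.5 (Mll3), 93.0 (Mll4) and 0.847 CPM (Mll3/4). How much of the B-lineage-like counts is free RNA was not tested. B-lineage-like cells came mostly from cluster 17 in the Mll3 library (156 cells) and from clusters 0 and 9 in the Mll3/4 library (3976 and 743 cells), so the class is not made of like clusters. Where the 28 cells come from was not tested: the library shares 8 to 11 barcodes with each of the others.

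Perforin lay in the B-lineage-like cells. All 80 Prf1 UMIs of the Mll3/4 library were in 72 B-lineage-like cells, at 1.60 CPM (1.27 to 1.99), and the 28 other cells had none. At the library's level 1.18 Prf1 UMIs would fall in those 28 cells, so a difference from them was not detectable at this depth. The 159 B-lineage-like cells of the Mll3 library had 3 Prf1 UMIs (0.732 CPM, 0.151 to 2.14), whose interval overlaps that of the Mll3/4 library. The MPP4 and CD150+CD135+ gates, which hold most cells of the Mll3/4 library, had 33 Prf1 UMIs each (1.33 and 1.97 CPM). Of the 10 NK markers, the T-box factors Eomes and Tbx21 were above the control in the Mll3/4 library, with 102 UMIs against 12 (2.01 CPM against 0.101) and 10 against 4. The other 8 were below it, among them Ccl5 with 3 UMIs against 418 and Klrk1 with 2 against 91. Whether Eomes and Prf1 share cells was not tested. In the same B-lineage-like cells Ctsw had 10 UMIs (0.200 CPM) and Klrd1 1.

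The other genes had their own main carriers, and how often these held Nkg7 differed by gene and library. In the control 11 of 14 Gzma-positive, 16 of 17 Gzmb-positive and 22 of 49 Klrd1-positive cells also had a Nkg7 UMI. In cells thinned to 3000 UMIs, Nkg7 was in 44.0% of those with Gzma, 61.7% with Gzmb and 12.9% with Klrd1, against 33.8% of all. These shares rest on an expected 6.58, 5.52 and 19.4 cells with the gene, so they are rough. The same shares in the Mll3 library were 42.1%, 64.7% and 5.61% against 17.5%, from an expected 19.3, 7.27 and 24.4 cells. In the Mll4 library Nkg7 was in 4.73% of an expected 308 cells with Gzmb, against 13.5% of all. It was there in 5.51% of 68.4 with Klrd1 and 0% of 2.81 with Gzma. In the control 88 of the 151 Gzma UMIs were in 5 cells of cluster 13, an unnamed cluster led by Cxcr6, Trbc1, Bcl11b and T-cell receptor gamma genes, and 57 were in 4 T-like cells. In the Mll3 library 118 of 194 were in T-like cells and 74 in cluster 13; those 30 T-like cells had Nkg7 at 255 CPM (217 to 299), with 28 positive. The Mll4 library had the most cluster 13 cells, 349, but they held 4 Gzma UMIs (1.47 CPM, 0.401 to 3.77) against 251 (202 to 310) in the control's 51 such cells.

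Gzmb was mostly in mast- or basophil-like cells in the Mll4 library and not in the others. Of its UMIs in the Mll4 library, 73.9% were in the mast- or basophil-like cells, whose level was 490 CPM (468 to 512), and 12.1% in the 72 cells of cluster 19, an unnamed cluster with mast-cell and globin genes (251, 224 to 281). Its mast- or basophil-like cells were shallow, with a median of 5006 UMIs. The 991 granulocyte- or monocyte-like cells of that library were at 1.84. The control and the Mll3 library each had 1 mast- or basophil-like cell, with 8 and 55 Gzmb UMIs (13.8% and 32.9%). In the control 25.9% of Gzmb UMIs were in lymphoid-primed-like cells, 24.1% in 1 cell of cluster 8, 19.0% in cluster 2 and 17.2% in megakaryocyte-like cells. Of the Mll3 library's 167 UMIs, 100 (59.9%) were in 6 lymphoid-primed-like cells.

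Dendritic-like cells, whose leading genes include Xcr1 and Clec9a, held more Klrd1 than any other class in 3 libraries. They held 49.3% of its UMIs in the control (124 CPM, 97.6 to 156), 60.2% in the Mll3 library (103, 81.5 to 128) and 70.2% in the Mll4 library (240, 219 to 262). The control and Mll3 values overlap, and the Mll4 value lies above both. There were 36, 60 and 92 such cells and none in the Mll3/4 library. Monocyte- or macrophage-like cells of the Mll4 library added 116 Klrd1 UMIs at 10.8 CPM.

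Ctsw was spread over the large classes. In the control, lymphoid-primed-like cells held 34.8% of its UMIs with 34.6% of the cells, at 13.9 CPM (12.7 to 15.2), cluster 2 held 31.0% with 21.1%, and HSC-like cells held 13.7% with 23.3%. HSC-like cells were at 10.2 (8.75 to 11.7) and granulocyte- or monocyte-like cells, the top class for Nkg7, at 1.99 (0.731 to 4.34). Cluster 13 was above these at 40.0 (21.9 to 67.1), from 14 UMIs. Cluster 13 was in the Mll4 library likewise the highest class at 19.1 (14.3 to 25.1) and the granulocyte- or monocyte-like cells were at 0.272 (0.145 to 0.466).

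The machinery around the granule was described from fixed gene lists, on the same rule of a 2-fold difference among genes at 5 CPM. Of 12 genes for granule maturation and release, none of the 11 compared passed in the Mll3 library. In the Mll4 library 3 of 12 were higher and 1 lower, where 8.27% and 5.15% of all genes were, and in the Mll3/4 library 5 of 11 were lower, where 13.7% of all genes were. The list's median log2 ratio was 0.02, 0.38 and -0.90, beside 0.10, -0.10 and -0.11 over all genes. Srgn, the proteoglycan core on which granule proteases are packed, was at 1139 CPM in the control and 395 in the Mll3/4 library (log2 ratio -1.53). Vamp8, a SNARE of granule fusion, was at 429 and 98.8 (-2.12), and Stxbp2, the syntaxin-binding protein whose loss impairs killing, at 46.9 and 18.3 (-1.35). Lamp1, the granule membrane protein, was at 229 in the Mll4 library against 105 (1.13), Ctsc, which activates granule proteases, at 123 against 36.5 (1.75), and Unc13d, the priming factor, was lower (-1.18).

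Of the partners and adaptors of Klrd1, 2 or 3 of 7 genes reached the level for comparison. The adaptor gene Tyrobp was at 63.2 CPM in the control, 24.3 in the Mll3 library (log2 ratio -1.38), 418 in the Mll4 library (2.73) and 2.17 in the Mll3/4 library (-4.86). The adaptor gene Hcst was at 24.0, 12.5, 44.2 and 0.650. The chain genes Klrc1 and Klrc2, which pair with CD94, had at most 23 and 9 UMIs in a library, and Klrc3 had none. In the Mll4 library, where 2 of the 3 compared genes of this list were higher (8.27% of all genes), monocyte-macrophage markers summed to 1024 CPM against 50.4 in the control; their part in Tyrobp was not tested.

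Of the granzyme inhibitors, 3 of 4 genes were compared. Serpinb6a was higher in the Mll3 library (47.9 against 20.1 CPM, log2 ratio 1.25), as were 1.71% of all genes. Serpinb6b was lower in the Mll3/4 library (1.99 against 13.9, -2.80), as were 13.7% of all genes. Of 6 papain-type cathepsins compared, relatives of Ctsw, 4 were higher in the Mll4 library, as were 8.27% of all genes, among them Ctss (348 against 19.1) and Ctsb (334 against 58.0), where Ctsw was lower; none passed in the Mll3 library. Ctsh alone of the 6 was lower in the Mll3/4 library (1.56 against 13.4), where 13.7% of all genes were. Among the other granzymes and effectors only Tnfsf10, which encodes the death ligand TRAIL, of 11 genes reached the level for comparison, and it passed in no library. Gzmm had 55, 45, 48 and 15 UMIs, and Gzmd, Gzme, Gzmf, Gzmg, Gzmk and Gzmn had none in any library.

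Of the transcription factors of killer cells, Runx3 was at 82.6 CPM in the control and 56.5 and 63.3 in the Mll3 and Mll4 libraries. It passed the fold only in the Mll3/4 library (log2 ratio -1.46), as 1 of 3 compared, where 13.7% of all genes were lower. Zeb2, Id2 and Prdm1, 3 of 4 compared, were higher in the Mll4 library (8.27% of all genes), at 300, 67.1 and 6.95 against 98.1, 10.5 and 0.880. Myeloid granule proteases went the opposite way to Nkg7 in the Mll4 library and the same way in the Mll3/4 library. All 9 compared were higher in the Mll4 library (8.27% of all genes), among them Mpo (3781 against 174 CPM), Prtn3 (2276 against 526) and Elane (1997 against 124), where Nkg7 was at 93.0 against 184. In the Mll3/4 library all 5 compared were lower (13.7% of all genes), among them Prtn3 (12.9) and Mpo (11.3).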

How the data were processed

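The deposited matrices hold raw UMI counts per gene and antibody for each barcode, which the authors made with Cell Ranger 6.1.1, per the file headers and the submitters' processing notes, on mm10, per the submitters' processing notes. Counts came from 10x 3' version 3.1 and feature barcode kits, per the labels. Whether strand was used is not given in the sources used here.

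The cell filter was a minimum of 1000 genes detected and a maximum of 10% mitochondrial UMIs. UMIs were summed per library, gate or cluster and scaled to the total of genes (CPM, UMIs per 1000000), with exact Poisson, Clopper-Pearson and conditional binomial intervals of 95%. A ratio has 0.5 UMIs added to each log2 value, and a count of 0 was set to 3 UMIs. With 1 library per group no test was run. Shares are the expectation after thinning cells to 3000 UMIs. Gates came from centred log ratios of 6 antibodies with thresholds from 2-component Gaussian mixtures. Clusters came from 2000 variable genes without the 6 genes, 30 components, 15 neighbours and Leiden resolution 0.6 (scanpy 1.11.5, leidenalg 0.10.2, Python 3.11.15), and were named from marker lists with at least 3 markers raised. Doublets were left in; Scrublet's own threshold called 1, 1, 169 and 0 cells and had not worked in 3 libraries, so an alternative removed the highest scores (180 to 423 cells per library). TMM factors came from edgeR 4.0.16 in R 4.3.3. Of 32285 gene identifiers, 32158 (99.6%) matched GENCODE vM21. The scripts were tested on simulated counts.

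The 6 genes and all gene lists were chosen with earlier results of these data known. Genes named beside the 6 are, in each list and comparison, up to 3 past the fold with the highest level; the 10 most and 5 least like Nkg7 by Pearson correlation of ln(1 + UMIs per 10000); and the defining markers of clusters that hold the 6 genes. Hcst, Ncr1, Klrb1c, Klrc1 to Klrc3, Gzmm and the granzymes at 0 were named after their values were seen.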

Additional observations from a re-analysis of the deposited data

Results flagged for a closer look

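For 3 of the 6 genes the same deletion went with opposite directions in the presence and absence of the other one, with 1 library on each side. The share of all genes that did so was not computed, so the count is not read as particular to these genes. The difference between the effects was not tested in any of them, and the contrasts share libraries. The log2 ratio of Gzmb was 5.44 between the Mll4 deleted and control libraries, but -4.74 between the Mll3/4 and Mll3 deleted libraries with the count of 0 set to 3 UMIs (upper 95% limit -4.42). For the Mll3 deletion it was 1.69 against the control and -8.49 between the Mll3/4 and Mll4 deleted libraries, set the same way (upper limit -8.19). Mast- or basophil-like cells, which held 73.9% of the Gzmb UMIs of the Mll4 library, numbered 605 there, 1 in the control, 1 in the Mll3 library and 0 in the Mll3/4 library.

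Klrd1 went from 2.21 for the Mll4 deletion against the control to -5.42 against the Mll3 library, the latter from 1 UMI. Dendritic-like cells, its main carriers, numbered 92 in the Mll4 library and 0 in the Mll3/4 library. Ctsw went from 0.59 for the Mll3 deletion against the control to -2.65 against the Mll4 library. In all 3 genes the Mll3/4 library is on the low side, and 4720 of its 4748 cells are B-lineage-like.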

How the results depend on the processing

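All 27 alternatives of the 3 Nkg7 ratios kept the level below the control. In the Mll3 library the log2 ratio was -1.21 with TMM, -1.21 with median-of-ratios scaling, -1.19 without mitochondrial and ribosomal protein genes and -0.60 with gates weighted to the control's shares. In the Mll4 library the same 4 settings gave -0.95, -0.94, -1.03 and -1.33, and it was -0.75 without clusters of mast, macrophage, plasma, T, NK or innate lymphoid kind, -1.08 with the stricter cell filter (at least 2000 genes, at most 5% mitochondrial UMIs) and -1.41 with equal weight per cell. In the Mll3/4 library equal weight gave -8.98 and weighted gates -5.64. For the other 5 genes 123 of 128 alternatives kept their sign. The exceptions were Klrd1 in the Mll3 library (up to 0.71) and Prf1 in the Mll4 library (-0.68 without the clusters named above), both with intervals that span 0. Gzma in the Mll3 library was 1.46 with weighted gates and in the Mll4 library -2.88 with equal weight. The cause was not tested in any of these.

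The share of control cells with a Nkg7 UMI was 25.4% when thinned to 2000 UMIs, 46.4% at 5000 and 68.9% unthinned, so it is set by depth. The HSC gate was at 8.98% with uncentred antibody counts and the MPP3 gate at 51.3% with thresholds fitted per library. HSC-like cells were at 64.0 CPM at resolution 0.3 and 18.8 with the control clustered alone; lymphoid-primed-like cells were at 217, 194 at resolution 1.0, and 203. Clustered alone, the control gave no granulocyte- or monocyte-like class. With a 4-fold rule and with a minimum of 20 CPM, the genes lower and higher numbered 21 and 29, and 41 and 53 (Mll3; 96 and 173 as reported), 49 and 250, and 445 and 450 (Mll4; 535 and 859), and 722 and 729, and 574 and 617 (Mll3/4; 1436 and 1078). Other scalings moved the median of all genes by at most 0.11. No paired analysis was possible because each group has 1 library.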
